A study of Mus musculus with 2 samples.

Results

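Thalamic excitatory neurons were found by a rule on counts in a single-nucleus RNA library of the adult mouse brain that is labelled hippocampus. Of 1661 nucleus barcodes, 1186 had at least 2000 unique molecular identifiers (UMIs, each a captured RNA molecule), under 5% of UMIs from mitochondrial genes and at least 1.5% from the nuclear RNA Malat1. Members were the barcodes among these with a UMI for at least 4 of the 6 genes Tcf7l2, Slc17a6, Lef1, Shox2, Rgs16 and Amotl1, and at most 1 UMI summed over the myelin genes Mog and Mag. The rule found 64 members, 5.40% of the 1186 (95% Clopper-Pearson interval 4.18% to 6.84%), and the remaining 1122 barcodes served for comparison. Male C57BL/6J animals of 56 days, from a standard inbred line and with no transgene or treatment named, were the source of the adult tissue. Slide-tags labels nuclei of a frozen section with spatial DNA barcodes before droplet sequencing, and the positions were not analysed here. The series has 1 library of this tissue and 1 of the brain of C57BL/6J embryos at embryonic day 14, likewise untreated. With 1 library and no replicate, no test was possible, and every interval below covers counting error only.

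The thalamus lies beneath the hippocampus and sends most of its excitatory output to the cerebral cortex. Its relay neurons load vesicles with glutamate through Slc17a6 (VGLUT2), while most hippocampal and cortical excitatory neurons use Slc17a7 (VGLUT1). They can fire in bursts, for which T-type calcium channels are needed, and their identity depends on Tcf7l2, a factor of the TCF/LEF family through which Wnt signals act on genes. Neurons of the thalamic reticular nucleus are GABAergic, and the neighbouring habenula has its own excitatory neurons.

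The members were deep nuclei. They held 1385660 UMIs in all, from 2399 to 63451 UMIs in a nucleus with a median of 19611, and a median of 5737 genes. The other barcodes held 13291306 UMIs, with a median of 9623 in a nucleus. The rule is easier to meet in a deep nucleus, since each of the 6 genes needs 1 UMI only. Mitochondrial UMIs made up between 0.0123% and 1.08% of a member's UMIs, with a median of 0.0757%, and Malat1 between 1.63% and 5.54%, with a median of 3.16%, below the median of 5.59% in the other barcodes. None of the 64 was among the 22 barcodes with the highest doublet scores. The adult and embryonic libraries shared 1 barcode sequence, which no member carried.

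The label was checked by clustering the 1186 barcodes on their most variable genes. Of 14 clusters, 1 was named thalamic-like from the 6 genes of the rule, so its overlap with the members is a description and no independent check. It held 67 barcodes, of which 61 were members, that is 95.3% of the 64. The other 3 members lay in an astrocyte-like cluster, and their counts went against the label. They had 22100, 18294 and 32661 UMIs, 4, 5 and 4 of the 6 genes, and 0, 1 and 0 UMIs of Slc17a6. The astrocyte glutamate transporter Slc1a3 had 36, 5 and 92 UMIs in them and 0 in the 61. Over the list of 8 astrocyte markers, all 8 had a UMI in the 3 barcodes, summing to 9815 CPM (counts per 1000000 UMIs), against 628 CPM in the 61 and 18616 CPM in the astrocyte-like barcodes. Endothelial markers summed to 1588 CPM in the 3 and 29.7 CPM in the 61. The 64 are kept as the rule gives them, and values for the 61 are given beside some of the results. In the lists of genes below, counts over the 61 differed from those over the 64 by at most 1 gene per list.

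At the edge of the rule, 7 members had exactly 4 of the 6 genes, 19 had 5 and 38 had all 6. Of the 7, 5 were thalamic-like and had between 2399 and 24327 UMIs. Just outside were 29 barcodes with 3 of the genes, with a median of 6987 UMIs. They were 13 endothelial-like, 5 thalamic-like, 4 astrocyte-like, 3 dentate granule-like, 2 oligodendrocyte-like, 1 inhibitory-like and 1 microglia-like. Of the members 60 had no UMI of Mog or Mag and 4 had 1, and the limit removed 2 barcodes with all 6 genes. The thalamic-like one of them had 34749 UMIs and 2 UMIs of Mog and Mag, and the oligodendrocyte-like one had 9506 UMIs and 20.

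The 6 genes chosen by the rule are described first, with no test, because they selected the members. Tcf7l2 (chr19:55741820-55933654 on GRCm38, plus strand) had a UMI in 64 of 64 members, with a lowest, median and highest value of 1.84, 8.90 and 41.9 UMIs per 10,000 UMIs of the nucleus. Summed over members its level was 944 CPM (893 to 997), where the range is the 95% Poisson interval, against 44.6 CPM (41.1 to 48.4) in the other barcodes. Among the other classes Tcf7l2 was highest in oligodendrocyte precursor-like barcodes, at 280.5 CPM, and stood at 246 CPM in oligodendrocyte-like ones, a lineage in which it is known to act. In neurons the gap was wider: CA1-like barcodes had 5 UMIs of Tcf7l2 in all, or 1.42 CPM (0.462 to 3.32).

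Lef1, the sister factor of Tcf7l2, had 755 CPM (709.8 to 802) in members and its values in single nuclei ran from 0 through a median of 7.14 to 19.7 per 10,000. Endothelial-like barcodes had more, 1134 CPM, whereas CA1-like barcodes held 1 UMI. Slc17a6 (chr7:51622006-51671119, plus strand) stood at 316 CPM (287 to 347) in members and 4.06 CPM (3.05 to 5.30) in the other barcodes, a ratio of 77.8 (58.5 to 105). It had a UMI in 61 of 64 members, with a lowest, median and highest value of 0, 2.93 and 11.3 per 10,000, and in 32 of the 1122 others. Shox2, a homeobox factor, was found in 44 of 64 members and 11 of 1122 others, and reached 85.2 CPM (70.5 to 102) in the sum over members. Rgs16, a regulator of G protein signalling, had 105 CPM (88.3 to 123) in members, and Amotl1, a scaffold protein of cell junctions, 333 CPM (304 to 365). The ranges of single nuclei overlapped for all 6 genes, since the highest other barcode was above some members for each of them.

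**Figure D1:**
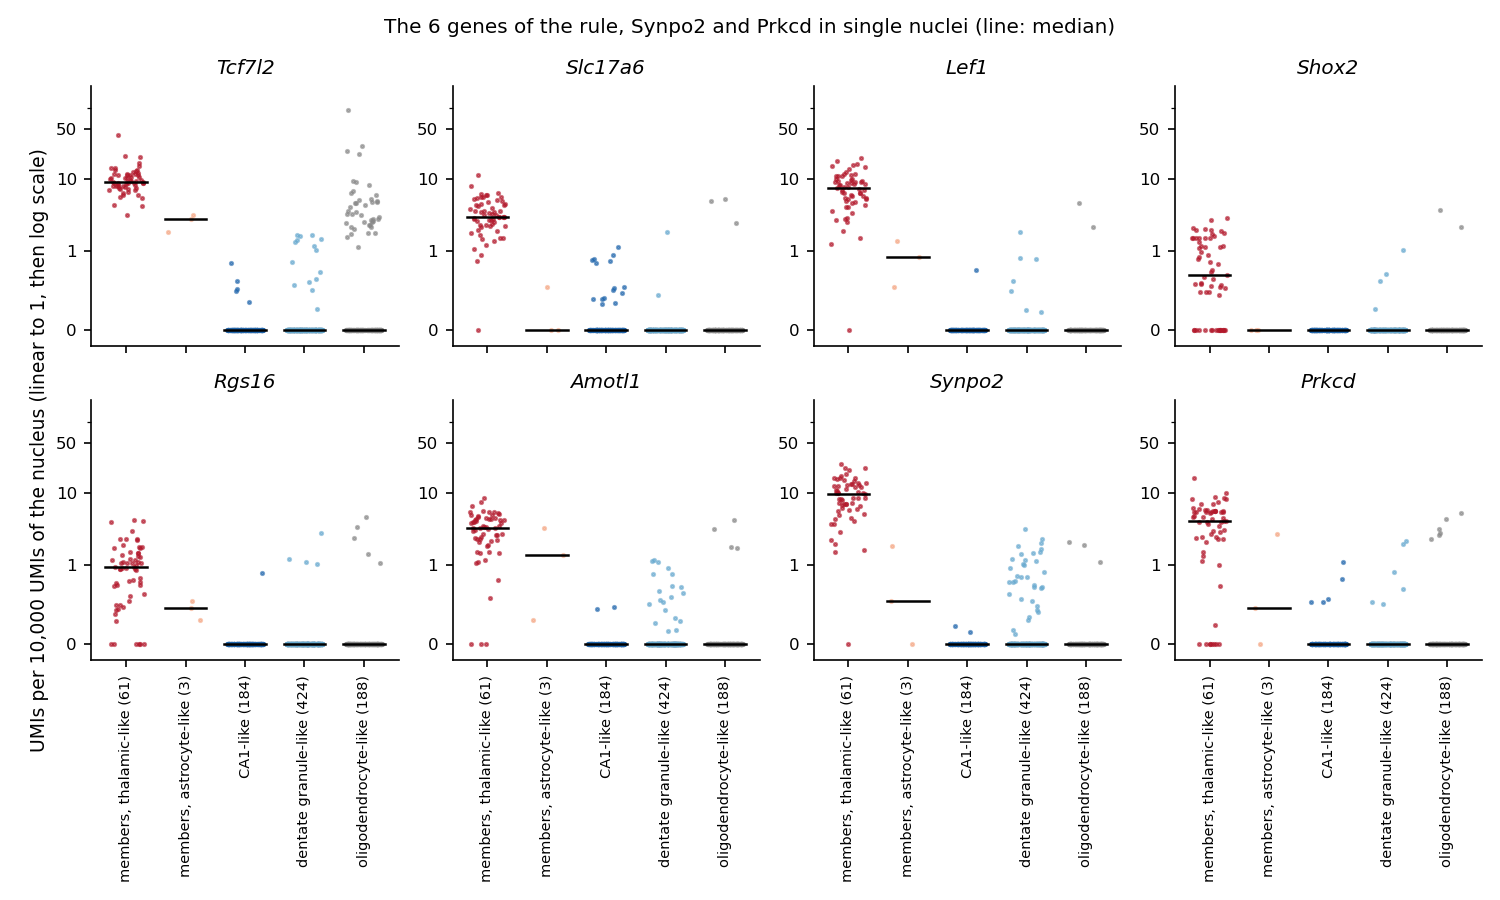
UMIs of 8 genes per 10,000 UMIs of each nucleus (linear to 1, then log scale), for 61 thalamic-like members, 3 astrocyte-like members and the CA1-like, dentate granule-like and oligodendrocyte-like barcodes; a point is a nucleus and a line a median. Medians of the thalamic-like members lie above 0 for all 8 genes, medians of the 3 other classes at 0, and oligodendrocyte-like barcodes reach up to 91.6 for Tcf7l2, above the members.

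Reference promoter sequences of genes that mark the members are shown because Tcf7l2 and Lef1 bind the core letters CTTTGA. They are RefSeq sequences on GRCm38.p6, from 250 bases before to 50 bases after a start site, written 5′ to 3′ along the gene, with matches to CTTTGA or its reverse complement TCAAAG in capitals.
Shox2 (chr3:66981722-66982021, minus strand): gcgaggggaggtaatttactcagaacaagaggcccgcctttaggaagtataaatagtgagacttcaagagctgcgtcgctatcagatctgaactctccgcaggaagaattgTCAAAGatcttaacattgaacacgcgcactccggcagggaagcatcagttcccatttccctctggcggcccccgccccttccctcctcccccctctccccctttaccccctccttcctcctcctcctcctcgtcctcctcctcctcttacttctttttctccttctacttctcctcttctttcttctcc
Prkcd (chr14:30626159-30626458, minus strand): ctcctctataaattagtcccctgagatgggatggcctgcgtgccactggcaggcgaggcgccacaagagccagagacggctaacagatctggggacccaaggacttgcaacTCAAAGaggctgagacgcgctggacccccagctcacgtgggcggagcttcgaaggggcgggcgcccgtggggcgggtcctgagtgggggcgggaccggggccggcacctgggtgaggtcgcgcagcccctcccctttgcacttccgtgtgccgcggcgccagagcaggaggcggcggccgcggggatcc
Slc17a6 (chr7:51621580-51621879, plus strand): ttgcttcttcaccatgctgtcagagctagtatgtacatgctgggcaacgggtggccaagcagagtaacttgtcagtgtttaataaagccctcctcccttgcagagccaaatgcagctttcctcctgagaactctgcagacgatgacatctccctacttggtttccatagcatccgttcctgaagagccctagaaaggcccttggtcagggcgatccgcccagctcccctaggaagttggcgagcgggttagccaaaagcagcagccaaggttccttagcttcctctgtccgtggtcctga
The Shox2 window and this Prkcd window each held 1 match, starting 139 bases before the start site, and this Slc17a6 window held none. Prkcd and Slc17a6 each have another window, not shown, and neither of those held a match. Of 22 genes (the 6 of the rule and the 20 with the largest ratio below, 4 of which are in both), 20 had promoters in the table, and 5 of these, 25.0%, held a match in at least 1 window. Over all 27025 genes the share was 18.2%. A match is a description of letters in these windows and not a binding site.

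Beyond the rule, a list of 8 genes known from thalamic neurons was examined. This list and those below were chosen with earlier results of these data known, so their counts are no check of the label. Of the 7 that passed the limit on low values, 7 were at least 2-fold higher in members than in the other barcodes, and 7 also against CA1-like and against dentate granule-like barcodes. Both classes are part of the other barcodes, here and below, so these comparisons are not independent of each other. The limit was a mean of 10 CPM over both groups compared. A gene at or near 0 in 1 group passes it only through the other group, which fixes its direction. Zic1 and Tnnt1, at 0 UMIs in CA1-like barcodes, passed in this way there. For background, 911 of 10461 genes, or 8.71%, were 2-fold higher in members than in the other barcodes and 1405, or 13.4%, were 2-fold lower, with a median log2 ratio of -0.08. Against CA1-like barcodes 15.1% of genes were 2-fold higher and 10.9% lower, and against dentate granule-like barcodes 13.5% were higher and 13% lower. Weighing each class of the other barcodes the same gave 860 higher and 2190 lower genes.

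Synpo2, which encodes an actin-binding protein, was close to absent from CA1-like nuclei. Its lowest, median and highest values were 0, 8.59 and 25.7 per 10,000 in members and 0, 0 and 0.233 in CA1-like barcodes. Of the 64 members, 27 lay above each of the 1122 other barcodes. With every nucleus thinned to 2000 UMIs, Synpo2 had a UMI in 70.3% of members and 0% of CA1-like barcodes (96.9% and 1.09% without thinning, at median depths of 19611 and 18644 UMIs). Prkcd, the kinase PKC delta, had 398 CPM (366 to 433) in members and 8.65 CPM (7.14 to 10.4) in the others, a ratio of 46.0 (37.6 to 56.8). Its highest other class was microglia-like, at 145 CPM. Prkcd was absent from 9 of the 64 members, its median was 4.06 per 10,000 and its highest value 16.6, so that members differed widely among themselves.

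Ntng1 and Rora were abundant in members but not particular to them. Ntng1, which encodes the axonal adhesion protein netrin-G1, had 3364 CPM (3268 to 3462) in members, 19.6 CPM (15.3 to 24.9) in CA1-like and 673 CPM (652 to 695) in dentate granule-like barcodes. Rora, a nuclear receptor, had 3759.9 CPM (3659 to 3863) in members and 2817 CPM in astrocyte-like barcodes. Plekhg1, which encodes a RhoGEF, had 1111 CPM (1056 to 1168) in members and 549.7 CPM in oligodendrocyte-like barcodes. Zic1, a zinc finger factor, had 196 CPM (173 to 220.3) in members and 0 UMIs in CA1-like barcodes, which puts it at least 229-fold higher with 3 counts over the class as the floor. Tnnt1, a troponin gene, had 88.8 CPM (73.8 to 106) in members but a UMI in 34 of 64 only. Gbx2, a homeobox factor of the developing thalamus, had 7 UMIs, or 5.05 CPM (2.03 to 10.4), too few for the limit.

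Transcription factors were examined next. Of 12 regional factors known from thalamus, 11 passed the limit, 7 were at least 2-fold higher than in the other barcodes and none was 2-fold lower, with a median log2 ratio of 2.46. The 7 were Rora, Rorb, Foxp2, Lhx9, Zic1, Zic4 and Zfhx3. Against CA1-like barcodes 10 of 10 that passed the limit were higher, and against dentate granule-like barcodes 7 of 10 were higher and 1 was lower. The lower one was Prox1, which is known to specify dentate granule neurons, at 131 CPM (113 to 152) in members and 349 CPM (334 to 365) in dentate granule-like barcodes. Foxp2 stood at 369 CPM (338 to 403) in members and 25.2 CPM (22.6 to 28.1) in the others, Rorb at 519.6 CPM (482 to 559) against 101 CPM (95.3 to 106), and Lhx9 at 41.1 CPM (31.2 to 53.3) against 5.87 CPM (4.64 to 7.32). Rorb was higher still in astrocyte-like barcodes, at 1284 CPM, and Zfhx3 in microglia-like ones, at 2402 CPM. Foxp2 stood at 411 CPM in cortical excitatory-like barcodes, with an interval that overlapped that of the members. Zic4 had overlapping intervals in members and endothelial-like barcodes. Lncbate1, which overlaps Zfhx3 on the other strand, and Zic1, which overlaps Zic4, are uncertain in part, since the sources used here do not state how strand was counted.

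Of 12 factors known from cortex and hippocampus, 9 passed the limit and 8 were at least 2-fold lower in members than in the others, with a median log2 ratio of -4.35. Neurod6, a factor of excitatory neurons of the telencephalon, had 1 UMI in members and 79.6 CPM (74.9 to 84.5) in the others, a ratio of 0.00907 (0.000229 to 0.0506). Bcl11b, a zinc finger factor, had 13.7 CPM (8.26 to 21.4) in members against 295 CPM (286 to 305). Mef2c was the member of the list that stood between the limits, at 393 CPM (361 to 428) and 347 CPM (337 to 357), and it was higher than in CA1-like barcodes, which had 107 CPM (96.8 to 119).

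Tcf7l2 and Lef1 were set beside genes that Wnt signalling is known to induce as feedback. Of 12 genes in this list, which includes both factors, 7 passed the limit. Of these, 3 were 2-fold higher than in the others: Tcf7l2, Lef1 and Lgr5, which encodes a receptor for R-spondins. Tcf7l2 and Lef1 selected the members, so Lgr5 was the only higher gene outside the rule. Lgr5 had 42.6 CPM (32.4 to 54.9) in members and 3.01 CPM (2.15 to 4.10) in the others, while oligodendrocyte precursor-like barcodes had more, 109.7 CPM. Axin2, a common readout of Wnt signalling, had 23.1 CPM (15.8 to 32.6) in members and 17.1 CPM (14.9 to 19.5) in the others, intervals that overlap. Against CA1-like barcodes Axin2 was 11.6 (5.02 to 31.1) times as high, on 7 UMIs in that class. Of 61 thalamic-like members, 60 had UMIs of both Tcf7l2 and Lef1. Both genes selected the members, so this count is a description only.

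Of 10 habenular genes, 2 passed the limit. Gap43, which encodes a growth-cone protein and is not particular to the habenula, was higher in members than in the others and both hippocampal classes, at 230.2 CPM (206 to 257) against 33.4 CPM (30.4 to 36.7) in the others, and stood at 248 CPM in cortical excitatory-like barcodes. Nwd2 was lower in the same 3 comparisons, at 13.7 CPM (8.26 to 21.4) against 63.7 CPM (59.5 to 68.2). In the members 7 habenular genes had 0 UMIs, among them Pou4f1, Tac2, Chat and Chrnb4, and the same genes had at most 13 UMIs each in the 1122 others apart from Htr5b, which had 33, so these zeros do not distinguish the members. Of 8 reticular and prethalamic genes, 4 had 0 UMIs (Six3, Isl1, Ecel1 and Dlx5). These 4 stood at 0.752 CPM or less in the others, so their zeros do not distinguish the members either. Gad1 and Gad2, which make GABA, had 8 and 3 UMIs in the 64 members, of which 9 lay in the 3 astrocyte-like ones. Slc32a1, which loads GABA into vesicles, had 0. Adarb2, an interneuron marker in cortex, was the exception, with 3533 CPM (3435 to 3634) in members, 1851 CPM (1816 to 1887) in dentate granule-like and 5242 CPM in inhibitory-like barcodes. CA1 markers summed to 19.5 CPM in members and 1371 CPM in CA1-like barcodes, and oligodendrocyte markers to 105 CPM against 24099 CPM in their own class. Lists of other classes were not all low. The 8 CA3 markers summed to 1254 CPM in members, above 704 CPM in the others, led by Trps1 at 473 CPM, and to 4316 CPM in CA3-like barcodes. Oligodendrocyte precursor markers summed to 1093 CPM in members and 1034 CPM in the others, led in members by Lhfpl3, with Pdgfra and Vcan at 0 UMIs, and to 17243 CPM in their own class. Cortical excitatory markers summed to 495 CPM against 552 CPM in the others, and dentate granule markers to 262 CPM, led by Prox1 at 131 CPM, against 1280 CPM. Inhibitory markers summed to 3553 CPM in members, of which Adarb2 made 3533 CPM. The part of these RNAs in the results was not tested. Microglial markers summed to 194 CPM in members, led by P2ry12 at 130 CPM, and to 232 CPM in the other barcodes. Ttr, an abundant choroid plexus transcript that often floats free, had 0 UMIs in members and 3 in the others.

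UMIs of Slc17a7 were also found in the members. It had a lowest, median and highest value of 0, 0.745 and 4.25 per 10,000 in members, 0, 2.36 and 7.12 in CA1-like and 0, 2.20 and 9.37 in dentate granule-like barcodes, so that the ranges overlapped. In sum it stood at 90.9 CPM (75.7 to 108) in members and 241 CPM (225 to 257) in CA1-like barcodes, a ratio of 0.378 (0.311 to 0.456). Against all others its lower call was lost with equal class weights and with the mean of the CPM of each barcode. Of the 61 thalamic-like members, 44 had UMIs of both transporters, 16 of Slc17a6 only and 1 of Slc17a7 only. Among classes that do not need Slc17a7, astrocyte-like barcodes held 72.1 CPM of it, oligodendrocyte precursor-like ones 54.9, endothelial-like ones 26.7, microglia-like ones 16.1, inhibitory-like ones 8.89 and oligodendrocyte-like ones 6.62 CPM. The part of free RNA in the members' level was not tested. With each nucleus thinned to 2000 UMIs, 15.6% of members and 44.6% of CA1-like barcodes had a Slc17a7 UMI.

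The genes with the largest ratio to the other barcodes included receptors, synaptic genes and signalling proteins. The 20 genes, each with at least 50 UMIs and in at least 50% of members, had ratios from 30.6 to 108. After Slc17a6, Shox2, Rgs16, Amotl1, Synpo2, Prkcd and Tnnt1, described above, they were Gm20658, Vipr2, Slitrk6, Mctp2, Grid2ip, Grm4, Rims3, Syt9, Tafa4, Lncbate1, Cit, Mrvi1 and Adra1b. Vipr2, a receptor for the peptides VIP and PACAP, had 121 CPM (103 to 140.2) in members, 16 UMIs in the 1122 others and 0 in CA1-like barcodes. Gm20658 is an antisense gene that lies within Vipr2 (chr12:116077726-116146261), and its 163 CPM (143 to 186) could not be told apart from Vipr2 where strand is not known. Slitrk6, which encodes a membrane protein that guides neurites, stood at 65.0 CPM (52.2 to 79.8) against 0.752 CPM (0.361 to 1.38).

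Among the 20 genes, Rims3, a protein of the active zone, had 147 CPM (127 to 168) in members and 40.9 CPM in inhibitory-like barcodes, its highest other class. Syt9, a calcium sensor for release, had 196 CPM (173 to 220.3) in members and 5.34 CPM (4.17 to 6.74) in the others. Cit, the citron kinase, had a lowest, median and highest value of 0, 10.7 and 17.1 per 10,000 in members and a median of 0 in CA1-like barcodes. Its level was 994 CPM (943 to 1048) in members and 247 CPM in inhibitory-like barcodes. Grid2ip, known as a partner of a delta glutamate receptor at cerebellar synapses, had 96.7 CPM (81.0 to 115) in members and 0.285 CPM (0.00721 to 1.59) in CA1-like barcodes.

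**Figure D2:**
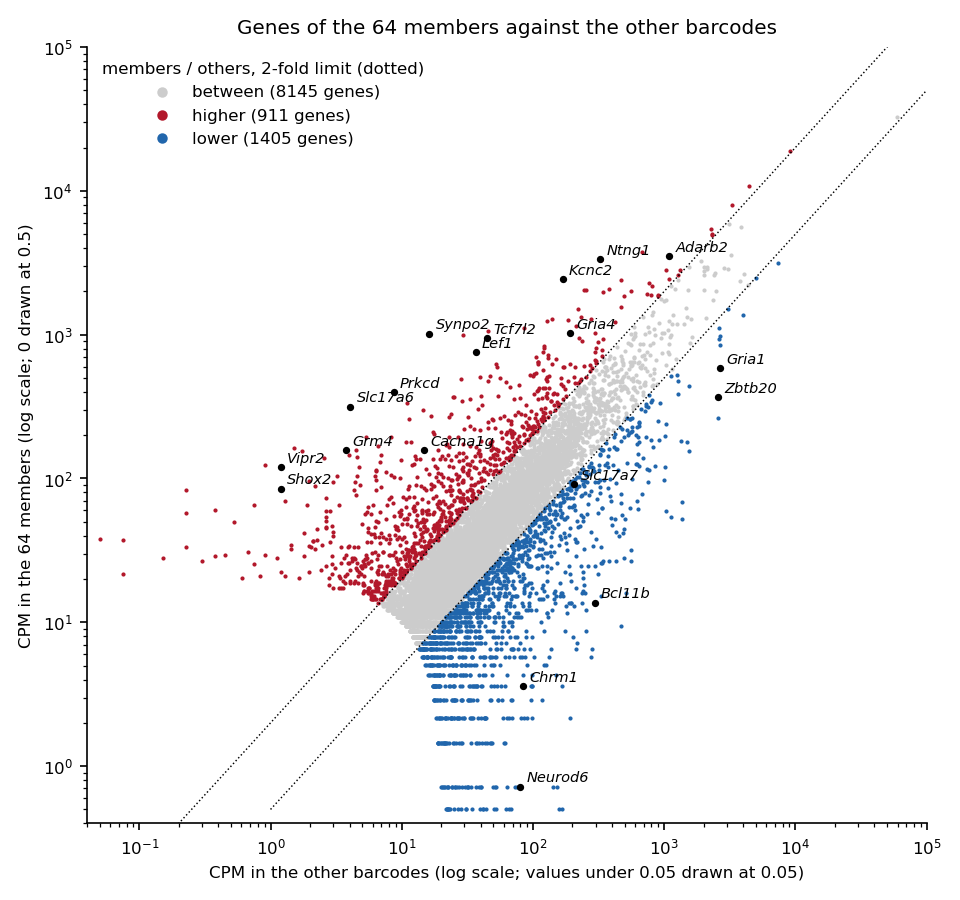
Each of 10461 genes by its CPM in the other 1122 barcodes (x axis, log scale) and in the 64 members (y axis, log scale), with dotted lines at a 2-fold difference. The 911 genes above the upper line include the genes of the rule, which chose the members, and Synpo2, Prkcd, Grm4 and Vipr2; the 1405 below the lower line include Neurod6, Bcl11b and Chrm1.

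Among the 10 genes with the smallest ratio, which stood at 50 CPM or more in the others, were Mog, on which the rule selected, the myelin genes Prr5l, Aspa and Gjc3, and Neurod6. The rest were Rprml and the uncharacterized transcripts 4921539H07Rik, Gm2164, Gm49678 and 1700007F19Rik. Gm49678 had 0 UMIs in members and 165 CPM (158 to 172) in the others, at least 76.3-fold lower, and 1700007F19Rik 0 UMIs and 157 CPM (151 to 164), at least 72.7-fold lower. Both were found in CA1-like barcodes, with 435 and 548 CPM there.

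T-type calcium channel genes, known for burst firing, differed in opposite directions. Of the 3 T-type calcium channel genes, Cacna1g was higher and Cacna1h and Cacna1i were lower, by at least 2-fold, against the other barcodes, CA1-like and dentate granule-like barcodes alike. Cacna1g, the main T-type gene of relay neurons (chr11:94408391-94474198, minus strand), had a lowest, median and highest value of 0, 1.55 and 4.97 per 10,000 in members and 0, 0 and 2.03 in CA1-like barcodes, with a UMI in 62 of 64 and 52 of 184. The ranges overlapped, while the sums stood at 158 CPM (138 to 180.4) and 21.9 CPM (17.3 to 27.4), a ratio of 7.21 (5.54 to 9.47). Cacna1h, known from dentate granule neurons, had 4 UMIs in members and 125 CPM (116 to 135) in dentate granule-like barcodes. Cacna1i, the T-type gene of the reticular nucleus, had 4 UMIs in members and 77.4 CPM (68.5 to 87.2) in CA1-like barcodes.

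Hcn4 and Hcn2 encode channels of the hyperpolarization-activated current. Hcn4 had 29.6 CPM (21.2 to 40.1) in members, in 25 of 64 nuclei, and 0 UMIs in CA1-like barcodes, and was thus at least 34.6-fold higher. Hcn2 had 46.2 CPM (35.6 to 59.0) in members and 37.0 CPM (30.9 to 44.0) in CA1-like barcodes. Of 17 voltage-gated potassium channel genes, 16 passed the limit, 4 were higher and 4 lower than in the others. Kcnc2, a Kv3 channel gene of fast spiking, stood at 2427 CPM (2346 to 2510.4) in members, 269.9 CPM (253 to 288) in CA1-like and 3.86 CPM (2.42 to 5.84) in dentate granule-like barcodes. Its lowest, median and highest values in members were 0, 23.0 and 52.1 per 10,000, and 0, 2.27 and 22.6 in CA1-like barcodes. Kcnq5 and Kcnh7 went in opposite directions by class: against CA1-like barcodes their log2 ratios were -3.11 and -2.79, and against dentate granule-like ones 2.26 and 1.15. The lower call of Kcnh7 against the others was lost with equal class weights and with the mean of the CPM of each barcode. Of 7 two-pore potassium channel genes, Kcnk4 was higher and Kcnk2 lower than in the others, and 5 lay between the limits. Kcnk4 stood at 36.1 CPM in CA3-like barcodes and 26.7 CPM in members, with overlapping intervals.

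AMPA receptor genes differed by subunit. Gria4 was 2-fold higher than in the others, CA1-like and dentate granule-like barcodes, and Gria1 and Gria2 were 2-fold lower than in each of the 3. Gria4 (chr9:4417896-4796234, minus strand) had a lowest, median and highest value of 0, 9.91 and 24.8 per 10,000 in members and 0, 0.537 and 5.86 in CA1-like barcodes. Its level of 1032 CPM (979 to 1087) compared with 89.1 CPM (79.5 to 99.6) there, and inhibitory-like barcodes had more, 1609 CPM. Gria1 stood at 585 CPM (546 to 627) in members and 3765 CPM (3701 to 3829.6) in CA1-like barcodes, a ratio of 0.155 (0.145 to 0.167), and Gria2, the subunit that keeps the channel closed to calcium, at 442 CPM (408 to 479) and 1853 CPM (1808 to 1899), a ratio of 0.239 (0.219 to 0.259).

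Of 10 genes for AMPA receptor auxiliary proteins, 10 passed the limit, 3 were higher and 5 lower than in the others. Against the others, the lower call of Cnih2 was lost when members needed 3 of the 6 genes, and those of Cacng3, Shisa7 and Gsg1l when classes weighed the same, so that 4 of the 5 lower calls were lost under 1 alternative or the other. Cacng2 was higher still in inhibitory-like barcodes, at 244 CPM against 179.7 CPM in members. Cacng2 (stargazin) and Cacng5 were higher and Cacng3, Cacng8, Cnih2 and Shisa7 lower in each of the 3 comparisons. Cacng5 had 58.5 CPM (46.4 to 72.7) in members and 3.99 CPM (2.18 to 6.69) in CA1-like barcodes, and Cacng8, the auxiliary protein gene best known from hippocampus, had 15.2 CPM (9.38 to 23.2) and 247 CPM (230.4 to 264). Shisa9 stood at 932 CPM (882 to 985) in members, 27.0 CPM (21.9 to 33.1) in CA1-like and 695 CPM (673 to 717) in dentate granule-like barcodes.

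Among NMDA receptor genes, 6 of 7 passed the limit, Grin2c, Grin2d and Grin3a were higher and Grin2a lower against the others and both neuron classes. Against the others, the calls of Grin2a and Grin3a were lost when classes weighed the same, and that of Grin2a also with the mean of the CPM of each barcode. Grin2c had 73.6 CPM (60.0 to 89.4) in members and 1 UMI in CA1-like barcodes, with a UMI in 43 of 64 members. Astrocyte-like barcodes had more Grin2c, 223 CPM, and the 61 thalamic-like members had 76.2 CPM. Grin3a was highest in oligodendrocyte precursor-like barcodes, at 537 CPM against 118 CPM in members. Grin1, the subunit in every NMDA receptor, was at 331 CPM (301 to 362) in members and 353 CPM (343 to 364) in the others, with overlapping intervals. Of 7 kainate receptor and Neto genes, Grik1 was higher and Grik4 and Neto1 lower than in the others, though Grik1 came inside the 2-fold limit when classes weighed the same. Grik4 turned by class, with a log2 ratio of 1.14 against CA1-like barcodes and -1.77 against dentate granule-like ones. Grik1 had 271 CPM (245 to 300.2) in members, 9.11 CPM (6.23 to 12.9) in CA1-like and 10.4 CPM (7.88 to 13.4) in dentate granule-like barcodes, and inhibitory-like ones had more, 878 CPM.

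Of 7 metabotropic glutamate receptor genes 7 passed the limit, 2 were higher than in the others, Grm4 among them, and 1, Grm8, was lower. Against CA1-like barcodes 5 of 6 were higher, Grm8 among them, with a log2 ratio of 1.53. Grm4, a presynaptic receptor, had a UMI in 54 of 64 members, at 158 CPM (138 to 180.4) against 5.12 CPM (3.04 to 8.10) in CA1-like and 0.702 CPM (0.191 to 1.80) in dentate granule-like barcodes.

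Of 12 GABA-A receptor genes, 12 passed the limit, 4 were higher than in the others (Gabra3, Gabra4, Gabrb2 and Gabrd) and 3 lower, among them Gabra2 and Gabra5. The calls of Gabra2, Gabra3 and Gabra5 were lost when classes weighed the same, and that of Gabrb2 when members needed 3 of the 6 genes. Gabra3 stood at 91.5 CPM in oligodendrocyte precursor-like barcodes and 56.3 CPM in members, with overlapping intervals. The subunits Gabra4 and Gabrd form receptors outside synapses that give relay neurons a tonic current. Gabra4 had 626 CPM (585 to 669.5) in members and 144 CPM (132 to 157) in CA1-like barcodes, and Gabrd 127 CPM (109 to 147) and 10.2 CPM (7.18 to 14.2). Both were also higher than in dentate granule-like barcodes, by ratios of 2.07 (1.91 to 2.25) and 2.15 (1.78 to 2.59). Gabra5 was lower, at 37.5 CPM (28.0 to 49.2) in members and 167 CPM (154 to 182) in CA1-like barcodes, as was Gabra2, at 166 CPM (145 to 189) and 433 CPM (412 to 456).

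**Figure D3:**
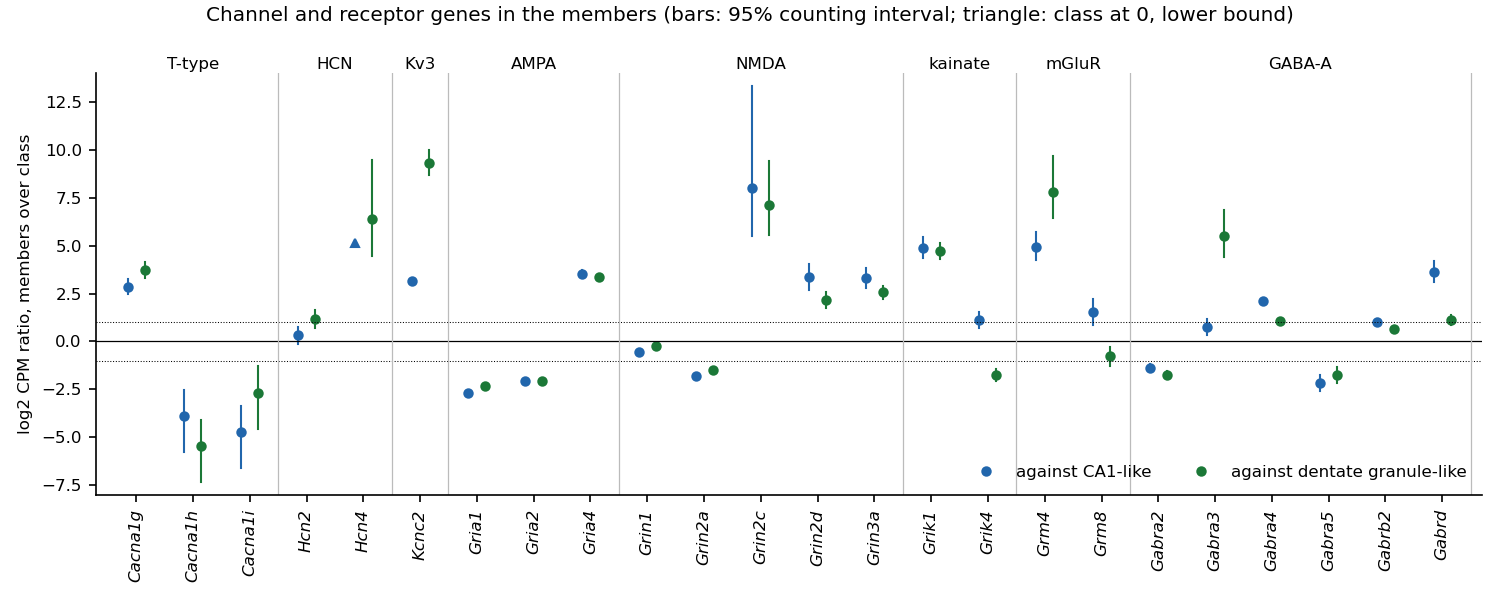
The log2 ratio of CPM in the 64 members to CPM in CA1-like (blue) or dentate granule-like (green) barcodes for channel and receptor genes grouped by family, with 95% counting intervals as bars; a triangle marks a class with 0 UMIs, where the value is a lower bound, and dotted lines mark 2-fold. Within a family single genes lie on opposite sides of 0, such as Cacna1g against Cacna1h and Cacna1i, or Gria4 against Gria1 and Gria2.

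Receptors for neuromodulators, the transmitters of arousal, differed by subtype. Of 21 genes 12 passed the limit, 6 were higher than in the others (Chrm2, Chrna4, Adra1b, Htr2c, Htr7 and Hrh3) and 5 lower (Chrm1, Chrm3, Chrna7, Adra1a and Htr4). The call of Chrm3 was lost with the mean of the CPM of each barcode, and that of Adra1a when members needed 3 of the 6 genes. The 6 were also higher than in CA1-like and dentate granule-like barcodes. Among muscarinic receptors, Chrm2 had 104 CPM (87.6 to 122) in members and 1.71 CPM (0.627 to 3.72) in CA1-like barcodes, whereas Chrm1 had 3.61 CPM (1.17 to 8.42) and 102 CPM (91.4 to 113). Chrm2 had a UMI in 43 of 64 members and 2 of 184 CA1-like barcodes. Chrm3 lay between the hippocampal classes, at 202 CPM (179 to 227) in members, 1839 CPM (1794 to 1884) in CA1-like and 5.09 CPM (3.41 to 7.31) in dentate granule-like barcodes.

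The noradrenaline receptor gene Adra1b (chr11:43774606-43901210, minus strand) had a lowest, median and highest value of 0, 1.15 and 4.51 per 10,000 in members, and a UMI in 2 of 184 CA1-like barcodes. Its level was 142 CPM (123 to 163) in members and 35.4 CPM in cortical excitatory-like barcodes, the next highest class. Of the serotonin receptor genes, Htr7 had 93.8 CPM (78.4 to 111) in members and 0.569 CPM (0.0690 to 2.06) in CA1-like barcodes, Htr2c 123 CPM (106 to 143) and 21.9 CPM (17.3 to 27.4), and Htr4, by contrast, 13.0 CPM (7.70 to 20.5) and 96.2 CPM (86.2 to 107). The nicotinic subunit Chrna4 had 65.7 CPM (52.9 to 80.6) in members and 3.13 CPM (1.56 to 5.60) in CA1-like barcodes, and Chrna7 15.9 CPM (9.95 to 24.0) and 124 CPM (113 to 137). Hrh3, a histamine receptor, had 36.8 CPM (27.4 to 48.4) in members and 1.71 CPM (0.627 to 3.72) in CA1-like barcodes. Orexin receptor genes were scarce, with 0 UMIs of Hcrtr1 and 4 of Hcrtr2 in members, and Drd2 had 18 UMIs in 17 nuclei.

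**Figure D4:**
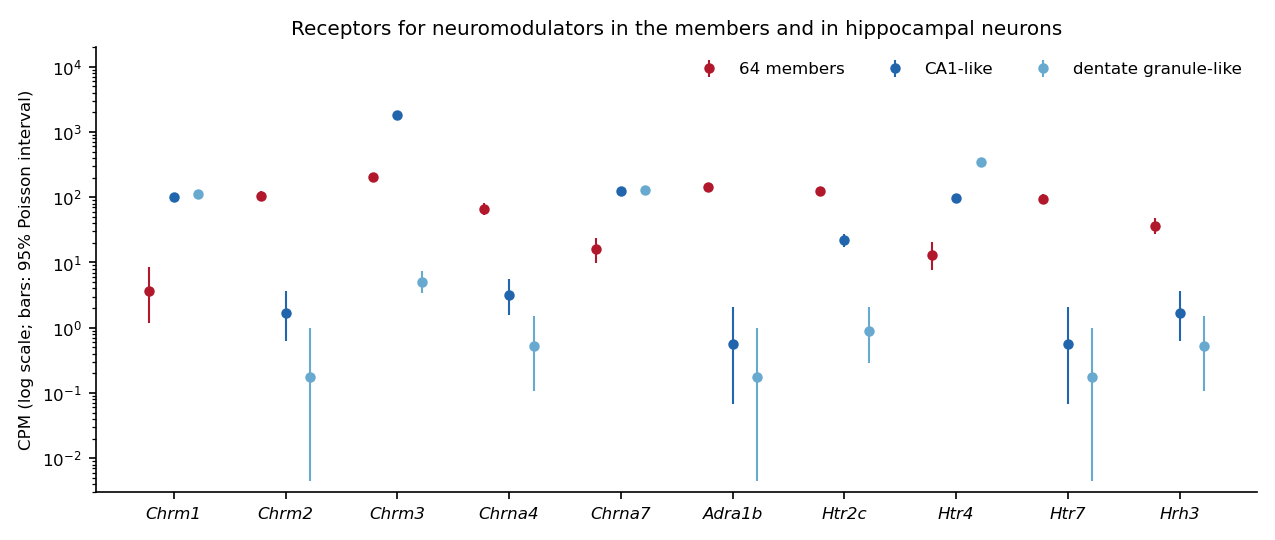
CPM (log scale) of 10 neuromodulator receptor genes in the 64 members (red), CA1-like (blue) and dentate granule-like (light blue) barcodes, with 95% Poisson intervals as bars. Chrm2, Chrna4, Adra1b, Htr2c, Htr7 and Hrh3 are highest in the members, and Chrm1, Chrna7 and Htr4 lowest in them.

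Axon guidance genes direct growing axons to their targets. Of 15 genes 15 passed the limit, 3 were higher than in the others (Efna5, Robo1 and Unc5c) and 9 lower, with a median log2 ratio of -1.42. The lower calls of Epha6 and Epha7 were lost when classes weighed the same, and that of Epha6 also with the mean of the CPM of each barcode. Unc5c was higher in inhibitory-like barcodes, at 2148 CPM, than in members, at 1869.9 CPM. Robo1, a Slit receptor, had a lowest, median and highest value of 0, 33.2 and 126 per 10,000 in members and 0, 3.05 and 11.9 in CA1-like barcodes. Its level was 3293 CPM (3198 to 3390.0) in members and 360.2 CPM (341 to 381) in CA1-like barcodes, while Robo2 went the other way, at 149 CPM (129 to 170.4) and 693 CPM (666 to 721). Efna5, an ephrin ligand, had 504 CPM (467 to 543) in members and 7.12 CPM (4.61 to 10.5) in CA1-like barcodes. Unc5d was lower than in dentate granule-like barcodes and higher than in CA1-like ones, with log2 ratios of -2.06 and 3.96. Of 14 synaptic adhesion genes 10 passed the limit, 2 were higher than in the others, Ntng1 among them, and Ntng2, C1ql2 and C1ql3 were lower. Ntng2, the partner gene of Ntng1, had 2 UMIs in members and 60.6 CPM (56.5 to 64.9) in the others.

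Of 9 immediate early genes 8 passed the limit against the others, Fos was higher and Junb, Arc, Npas4, Nr4a2 and Nr4a3 lower. Against CA1-like barcodes 6 of 8 were lower and none higher. Against dentate granule-like barcodes 3 passed the limit, Egr1 and Nr4a1 were higher and Junb was lower, so the direction turned by class. The call of Fos was lost when members needed 3 of the 6 genes, and that of Nr4a3 in the 61 thalamic-like members. In cortical excitatory-like barcodes Fos had 22.9 CPM, an interval that overlapped that of the members. Arc had 2 UMIs in members and 47.3 CPM (40.3 to 55.0) in CA1-like barcodes, and Fos 15.9 CPM (9.95 to 24.0) in members and 14.5 CPM (10.8 to 19.1) in CA1-like barcodes. Of 8 general neuronal genes, Meg3, Tubb3 and Stmn2 were higher than in the others, though Meg3 was higher in inhibitory-like barcodes (8966 CPM against 7928 in members) and Stmn2 in cortical excitatory-like ones (359 CPM against 265), 4 lay between the limits, and Rbfox3, the gene of the NeuN antigen, was lower, at 231 CPM (206 to 258) against 634 CPM (608 to 661) in CA1-like barcodes. The call of Rbfox3 against the others was lost when classes weighed the same.

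The members also differed among themselves. An index of variation was taken as the mean squared Pearson residual of a gene's UMIs given each nucleus's depth, which is 1 where only sampling varies. Over the 64 members its median was 1.43 for 4181 genes with a mean of at least 1 UMI, and 1008 genes reached 2. The 10 highest were Cst3, Apoe, Wdr17, Malat1, Slc1a3, Zbtb20, Gpc5, Lrrtm4, Kcnip4 and Slc1a2. Of these, Slc1a3, Gpc5, Apoe, Cst3 and Slc1a2 are astrocyte genes, and Apoe stood at 207 CPM in the 64 and 28.2 CPM in the 61 without the astrocyte-like members. Over the 61 the 10 highest were Lrrtm4, Malat1, Cntn5, Kirrel3, Pcdh9, Kcnip4, Gm42418, Cntnap2, Rbfox1 and Dab1, 3 of them shared with the first list. Lrrtm4, a synaptic organizer, ran from 0 through a median of 21.8 to 119 per 10,000 among the 61, and Kirrel3, an adhesion gene, from 0 through 4.49 to 56.3. Gm42418 overlaps ribosomal RNA and Malat1 is the gene of a filter, so neither is read further.

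Tnnt1, Necab1 and Calb2 are known as markers of different groups of thalamic nuclei, Tnnt1 for the primary relay nuclei and Calb2 for midline ones. Among the 61, Tnnt1 had a UMI in 33, Necab1 in 54 and Calb2 in 25. Lowest, median and highest values were 0, 3.19 and 21.3 per 10,000 for Necab1, 0, 0.528 and 8.51 for Tnnt1 and 0, 0 and 7.45 for Calb2. Each of the 25 nuclei with Calb2 also had Necab1, 29 had Necab1 without Calb2, and 7 had neither. Calb2 and Tnnt1 occurred together in 8 nuclei, Calb2 alone in 17, Tnnt1 alone in 25 and neither in 11. The nuclei were not divided into groups.

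Rank correlations across the 61 nuclei, which share 1 library, are given as a description. They were taken over 36 genes, hence 630 pairs, on UMIs as counted, with each nucleus thinned to 10000 UMIs, which left 53, and with each thinned to 2000 UMIs, which kept 61. The values follow in that order. Necab1 and Kirrel3 had a Spearman's rho of 0.76, 0.57 and 0.49. For Necab1 with Lrrtm4 it was 0.67, 0.51 and 0.27, with Cntn5 0.64, 0.50 and 0.46 and with Calb2 0.56, 0.55 and 0.31. On the other side, Necab1 and Prkcd had -0.65, -0.56 and -0.23, Necab1 and Plekhg1 -0.56, -0.30 and -0.15, and Necab1 and Pcdh9 -0.56, -0.44 and -0.39. Tnnt1 and Prkcd had 0.54, 0.28 and 0.31. Several of these values lay closer to 0 at 2000 UMIs, those of Necab1 with Prkcd and Plekhg1 among them. Malat1, the gene of a filter, had -0.47, -0.48 and -0.45 with Necab1, -0.35, -0.38 and -0.26 with Lrrtm4 and 0.28, 0.33 and 0.10 with Prkcd. Depth had a rho of -0.13 with Necab1, 0.13 with Prkcd, 0.27 with Plekhg1 and 0.39 with Pcdh9. Over the 36 genes its rho ran from -0.31 for Ramp3 to 0.46 for Rbfox1. The part of Malat1 and depth in these correlations was not tested.

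Across 121 genes of the lists with at least 1 UMI on average, 9 had a rho above 0.5 with Necab1 and 4 under -0.5. Each is given with its value after thinning to 10000 UMIs. The receptor genes Gabra3 (0.67, and 0.54 after thinning), Gabra2 (0.61, and 0.60 after thinning) and Grin3a (0.53, and 0.25 after thinning) and the guidance receptors Dcc (0.57, and 0.45 after thinning), Robo2 (0.57, and 0.41 after thinning) and Robo1 (0.54, and 0.43 after thinning) were on the Necab1 side. Nrxn3 (-0.58, and -0.50 after thinning) was on the Prkcd side with Prkcd and Plekhg1. The nucleus highest in Necab1 stood apart. It had 9400 UMIs, with 20 of Necab1 and 7 of Calb2, and it also held 24 UMIs of the 8 endothelial markers, where the other 60 nuclei held 15 together. Without it the rho with Necab1 was 0.66 for Gabra3, 0.53 for Calb2 and -0.64 for Prkcd.

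**Figure D5:**
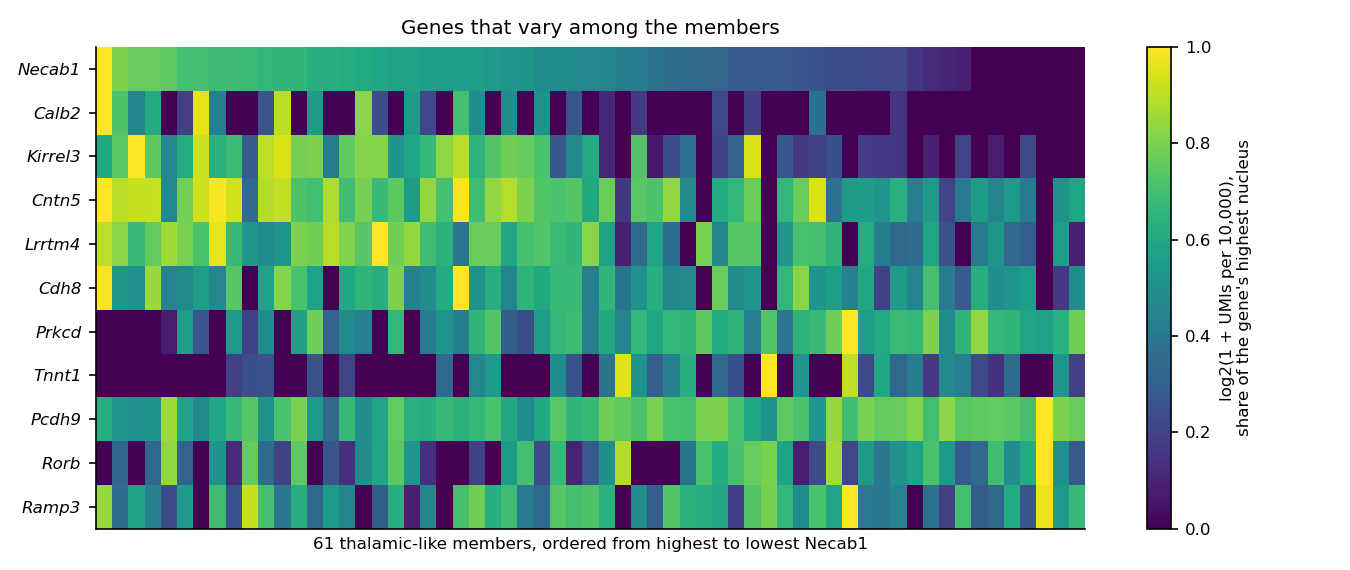
The 11 genes (rows) in the 61 thalamic-like members (columns), ordered from the highest to the lowest Necab1; colour is log2 of 1 plus UMIs per 10,000, as a share of the gene's highest nucleus. Kirrel3, Cntn5, Lrrtm4 and Calb2 tend to be brighter on the left, where Necab1 is high, and Prkcd and Tnnt1 on the right, with exceptions in single nuclei.

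The same rule was applied to the library of embryonic day 14, where it found 321 of 6745 barcodes, 4.76% (4.26% to 5.29%), of which 3 had all 6 genes. These are not called thalamic neurons. Of the 321, 216 had a UMI of Gad1 or Gad2, against 4 of the 64 adult members, and their median depth was 20242 UMIs against 5228 in the other embryonic barcodes. Slc17a6 stood at 151 CPM in them and 114 CPM in the other embryonic barcodes, Gad2 at 225 and 309 CPM, and Synpo2 at 22.3 and 12.4 CPM. In the adult members Slc17a6 was at 316 and Gad2 at 2.17 CPM. Age, dissection and the Cell Ranger version, 6.1.2 in the adult and 7.0.1 in the embryonic file header, cannot be told apart between the libraries, and no difference between ages is drawn.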

How the data were processed

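Nuclei of 1 adult and 1 embryonic mouse brain library were profiled by droplet single-nucleus RNA sequencing after spatial tagging. The authors aligned reads to mm10 with Cell Ranger (6.1.2 per the adult file header, 7.0.1 per the embryonic one), with intronic reads included. The values the authors deposited are raw UMI counts for each gene in each barcode. Whether strand was used in counting is not given in the sources used here.

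Barcodes were filtered and chosen by the rule stated above. CPM is the sum of a gene's UMIs over a group per 1000000 UMIs of the group, with exact 95% Poisson intervals, and ratios have exact conditional intervals. Genes were called past 2-fold where the mean CPM of both groups was at least 10, and a count of 0 was taken as up to 3. Clusters came from Seurat 5.3.0 in R 4.3.3 and were named from fixed markers. Doublets were scored with Scrublet in scanpy 1.11.5. Its automatic threshold marked 7 barcodes (0.421%), judged too few, so the 22 highest scores (1.32%) were taken as doublets instead. Nothing was removed for it. The procedure was tested on simulated data. edgeR 4.0.16 served for TMM factors in an alternative.

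Genes named were those of the rule, of 26 lists (229 genes), the 20 largest and 10 smallest ratios, and the 10 most variable genes, with Ttr. Members and lists were chosen with earlier results of these data known. Necab1's correlations, Gm42418 and the endothelial check were chosen after values were seen. With 1 library per group there are no replicates, so no test across samples was made. Some genes of the lists are counted in them but not reported here by name.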

Additional observations from a re-analysis of the deposited data

Results flagged for a closer look

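A group of barcodes that the filters removed met the rule in every other respect. Of 62 barcodes with at least 2000 UMIs, under 5% mitochondrial UMIs and less than 1.5% Malat1, 8 had at least 4 of the 6 genes and at most 1 UMI of Mog and Mag, or 12.9% (exact interval 5.74% to 23.9%). They stood out because this signal lies outside the nuclei compared above. The 8 held 46673 UMIs with a median of 5695, and 0.0459% to 1.36% of a barcode's UMIs were Malat1. Mitochondrial UMIs made up 0.456% to 2.85%, with a median of 0.809%. In CPM over the 8, Tcf7l2 stood at 1778 and Slc17a6 at 557, which selected them. Outside the rule Prkcd stood at 686 CPM against 398 CPM in the members, Synpo2 at 429 against 1016 CPM and Snap25 at 1436 against 873 CPM. What sets them apart from the members was not tested.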

How the results depend on the processing

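Of the alternatives to the rule, 3% in place of 1.5% as the Malat1 minimum left 36 members, and the others gave 57 to 90. Against the other barcodes, 911 genes were 2-fold higher and 1405 lower. With no limit on low values the counts were 3937 and 3142, with a mean of at least 50 CPM 431 and 469, at 1.5-fold 1711 and 2440, and at 4-fold 361 and 610. Weighing all classes of other barcodes the same gave 2190 lower genes. The further alternatives stayed between 860 and 1041 higher and between 992 and 1857 lower genes. Thinning each member to 2000 UMIs left 57 genes with an index of variation of 2 or more, and thinning to 10000 UMIs left 367, against 1008 as counted. Fewer genes pass the mean of 1 UMI after thinning. Of 215 named genes 151 were past 2-fold. Apoe and Slc1a3, astrocyte genes, turned to log2 ratios of 0.35 and 0.13 when members needed at least 3 of the 6 genes. At that setting 10 genes lost their call, Cacna1b, Cnih2, Gabrb2, Adra1a, Fos, Wdr17, Gpc5 and Kcnip4 beside these. The mean of the CPM of each barcode lost 7, among them Slc17a7, Kcnh7, Grin2a and Chrm3, and a higher UMI minimum lost 3. Equal class weights moved 17 genes inside the limit, among them Slc17a7, Grik1, Grin2a, Grin3a, Gabra2, Gabra3 and Gabra5. Thinning to 10000 UMIs, keeping the 61 thalamic-like members alone and leaving out thalamic-like barcodes that did not meet the rule were chosen after seeing the data. No paired analysis was possible because each group is 1 library. With 1385660 UMIs over the members, a gene with 0 counts may stand at up to 2.17 CPM.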
